A study of Rattus norvegicus with 6 samples.

Results

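The genes described here are 31 rat genes that carry glucose into the cell, break it down to pyruvate, interconvert pyruvate and lactate, move lactate across the membrane, or pass pyruvate into mitochondria. They were taken from the deposited expression table by gene symbol, and all 31 were found among its 32662 genes. Of the 31, 3 (Slc2a3, Tpi1 and Eno2) were listed at 0 in every library, 1 (Slc16a3) lay below the expression filter, and 27 were tested. The libraries came from primary cultures of oligodendrocyte precursor cells, the proliferating progenitors of myelin-forming oligodendrocytes. They were taken as the non-adherent fraction of mixed glia (grown in 20% FBS) from cerebral cortex of Sprague-Dawley rats aged 1 to 2 days. All cultures had been grown for 4 to 5 days in Neurobasal medium with PDGF and FGF (each 10 ng/ml), 2% B27 and 2 mM glutamine. The control group was 3 libraries labelled Control, and the fibril group was 3 libraries from cells given preformed fibrils of human alpha-synuclein for 72 hours; what the controls received in that time is not stated. No genetic change is named for either group. The labels do not say whether a group's libraries were separate cultures or animals; p-values therefore reflect the spread of these libraries alone, and that spread may be technical.

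Glycolysis splits glucose into pyruvate in the cytosol and makes a little ATP. Pyruvate then goes either to lactate, through lactate dehydrogenase, or into mitochondria, through the mitochondrial pyruvate carrier and the pyruvate dehydrogenase complex. Oligodendrocytes are known to use glycolysis and to export lactate to axons through the transporter encoded by Slc16a1. Several glycolysis genes are classic targets of the hypoxia-inducible transcription factors.

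Levels are in FPKM, which divides a gene's fragments by its length and by the library's total, so levels of different genes share 1 per-length scale. Values in a series of 3 follow the order of replicates 1, 2 and 3. How many fragments stand behind a value is unknown. Taking control replicate 2 as 1, the FPKM that a single fragment adds was 4.03 and 6.87 in the replicate 1 libraries (control and fibril). It was 0.824 to 1.95 in the remaining ones, so low values are least precise in replicate 1. For fibril replicate 1 a direct comparison with control replicate 2 gave 2 equally good values. The figure of 6.87 was therefore reached through control replicate 1 and is less certain. Mitochondrially encoded genes made up 80.3% and 75.6% of all FPKM in the replicate 1 libraries and 12.004% to 40.1% elsewhere. Fibril replicate 3 also stood apart: 12 of the 27 tested members (44.4%) were highest there, against 28.5% of all 10766 tested genes.

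Ldha, Pfkl, Aldoa and Pgk1 were the members in which all 3 fibril libraries lay above all 3 controls, and none of the 27 lay below all controls. That is 14.8% of the tested members, where 4.24% of all tested genes lay above and 5.30% below. No member passed the test in either direction, nor did any of the 10766 genes (0% called higher and 0% called lower by limma at an adjusted p of 0.05; 433 genes, 4.02%, had an unadjusted p under 0.05, among them Ldha and Pfkl). When replicate number was fitted as a block, 12 genes (0.111%) rose, 0 fell (0%), and 0 of them were members. The lowest adjusted p of a member by limma was 0.96 without the block and 0.244 with it (Ldha). The count of 4 members above all controls became 10 without control replicate 1, where 11.4% of all genes lay above. It was 7 without fibril replicate 1 and 4 without fibril replicate 3, where 10.5% and 5.81% of all genes lay above. Leaving out a library cannot lower such a count, so these counts do not test the separation.

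**Figure D1:**
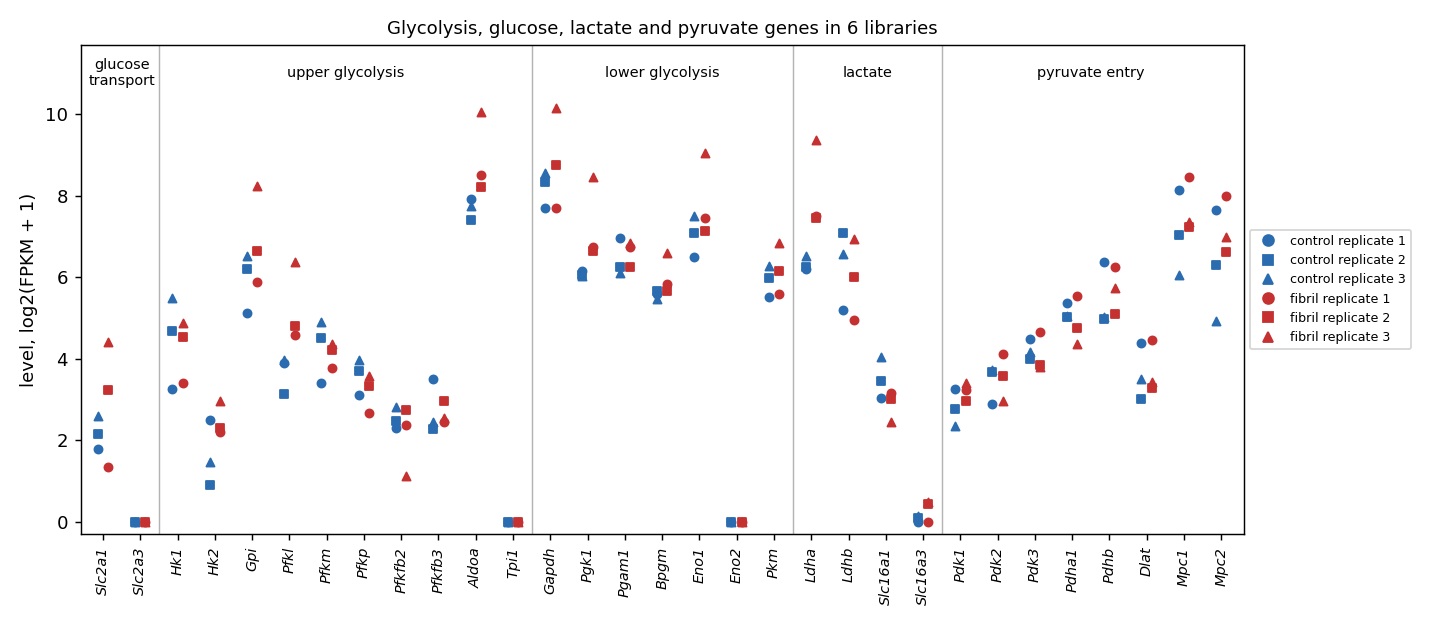
Level of each of the 31 members, as log2(FPKM + 1), in the 6 libraries (blue control, red fibril; circle, square and triangle for replicates 1, 2 and 3), grouped by role. The 3 red symbols lie above the 3 blue ones for Ldha, Pfkl, Aldoa and Pgk1, and Slc2a3, Tpi1 and Eno2 sit at 0 throughout.

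Ldha and Pfkl had the highest log2 differences of the set and are compared further on with a related gene of each, Ldhb and Pfkm, so the 250 bases before the annotated start of these 4 genes are shown. They are RefSeq sequences of the build GRCr8, found for 29 of the 31 members by symbol, and each of the 4 genes has 1 start in that table. Capitals mark ACGTG and GCGTG read on either strand, the core letters of the hypoxia response element; a run CACGTG, the E-box, holds ACGTG on both strands. The regions are chr1:106507842-106508091 on the + strand for Ldha, chr4:177177409-177177658 on the - strand for Ldhb, chr20:10663715-10663964 on the + strand for Pfkl and chr7:131113849-131114098 on the + strand for Pfkm.
Ldha: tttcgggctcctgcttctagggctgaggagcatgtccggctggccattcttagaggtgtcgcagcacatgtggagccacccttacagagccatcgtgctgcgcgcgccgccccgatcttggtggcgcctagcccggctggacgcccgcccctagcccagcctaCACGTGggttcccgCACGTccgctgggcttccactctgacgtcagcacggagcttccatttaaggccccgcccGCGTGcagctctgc
Ldhb: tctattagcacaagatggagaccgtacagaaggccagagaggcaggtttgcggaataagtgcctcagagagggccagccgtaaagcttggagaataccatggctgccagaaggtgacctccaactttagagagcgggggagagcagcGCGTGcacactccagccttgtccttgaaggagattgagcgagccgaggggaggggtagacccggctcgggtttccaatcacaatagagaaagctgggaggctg
Pfkl: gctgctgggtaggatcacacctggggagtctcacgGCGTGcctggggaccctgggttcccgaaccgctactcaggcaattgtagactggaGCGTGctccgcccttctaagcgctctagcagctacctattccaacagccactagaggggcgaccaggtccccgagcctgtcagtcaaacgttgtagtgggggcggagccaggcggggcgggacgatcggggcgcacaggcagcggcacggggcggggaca
Pfkm: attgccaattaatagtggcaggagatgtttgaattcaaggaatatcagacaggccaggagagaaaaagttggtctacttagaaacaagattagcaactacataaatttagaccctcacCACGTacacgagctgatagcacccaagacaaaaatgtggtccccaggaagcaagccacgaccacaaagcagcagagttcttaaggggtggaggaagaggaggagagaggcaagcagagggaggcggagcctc
The Ldha stretch has 3 ACGTG matches, of which an overlapping pair forms a CACGTG, and 1 GCGTG match. Ldhb has 1 GCGTG match, Pfkl has 2 GCGTG matches and Pfkm has 1 ACGTG match. Over all members with a sequence, 14 of 29 (48.3%) held ACGTG before at least 1 start, against 18.1% of 27457 genes in the table and 24.2% of the 7938 tested genes matched by symbol. For GCGTG the shares were 51.7% of members, 28.4% of all genes and 48.8% of tested genes, and for CACGTG 17.2% (Slc16a1, Pfkfb3, Pdk2, Pdhb and Ldha), 6.18% and 8.98%. These are matches of letters and show no binding.

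Of the glucose transporter genes in the set, Slc2a1, which encodes GLUT1, was the one measured above 0. Its level was 2.46, 3.48 and 5.00 FPKM in the controls and 1.54, 8.35 and 20.3 FPKM in the fibril libraries. The fibril library was below its control in replicate 1 and above it in replicates 2 and 3, and the groups overlapped (log2 difference 0.81, SE 0.71, limma adjusted p = 0.96). The log2 difference of Slc2a1 was 0.11 without fibril replicate 3 and 1.64 without fibril replicate 1. Slc2a3, encoding the high-affinity transporter GLUT3, was listed at 0 in all 6 libraries. Dppa3, Gdf3 and Nanog share its listed locus and were at 0 as well, and genes that every cell uses, Hprt1, Rps6 and the member Tpi1 among them, were also at 0, so a 0 in this table can be a failed estimate.

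Among the first steps, up to the triose isomerase Tpi1 and called upper glycolysis in the plots, Pfkl had the highest log2 difference. Pfkl, the liver-type subunit of the enzyme that commits glucose to glycolysis (chromosome 20, 11393876 to 11415882 in the deposited table, whose build is not given in the sources used here), had 14.001, 7.72 and 14.8 FPKM in the controls and 23.02, 26.7 and 81.5 FPKM in the fibril libraries. Every fibril library was above every control, and fibril replicate 3 was far above the other 2 (log2 difference 1.58, SE 0.54, limma adjusted p = 0.96, or 0.291 with the block). Without fibril replicate 3 the log2 difference was 1.02. Rescaled to equal totals without mitochondrial genes, the Pfkl groups overlapped; the log2 difference was then 1.32, or 1.65 relative to the median of all genes. Pfkm, the muscle-type subunit, had 9.62, 21.6 and 28.8 FPKM against 12.6, 17.5 and 19.6 FPKM. Pfkp, the platelet-type subunit, had 7.71, 11.97 and 14.6 FPKM against 5.32, 9.05 and 10.9 FPKM. Pfkp was the only member lower with fibrils in all 3 replicate numbers (3.70% of tested members, against 19.3% of all tested genes), with a log2 difference of -0.41 (SE 0.42), and its groups overlapped.

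Aldoa, the aldolase that splits fructose 1,6-bisphosphate (chromosome 1, 198228386 to 198233588), had 240, 168 and 213 FPKM in the controls and 361, 295 and 1059 FPKM in the fibril libraries. Its lowest fibril library lay above its highest control, and replicate 3 showed by far the widest gap. The log2 difference was 1.23 (SE 0.59, limma adjusted p = 0.96, or 0.481 with the block) and was 0.67 without fibril replicate 3. Under quantile normalization the Aldoa groups overlapped, with a log2 difference of 0.78.

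Gpi, the isomerase that turns glucose 6-phosphate into fructose 6-phosphate, had 33.6, 72.3 and 91.3 FPKM against 58.4, 98.6 and 300.2 FPKM. It was higher with fibrils in each replicate number, yet fibril replicate 1 lay below control replicates 2 and 3 (log2 difference 0.98, SE 0.66). The log2 difference of Gpi was 0.32 without fibril replicate 3, 0.56 without control replicate 1 and 1.49 without fibril replicate 1. The hexokinases, which trap glucose in the cell, differed in level: Hk1, the form common in brain, had 8.58, 24.5 and 44.1 FPKM against 9.60, 22.0 and 28.3 FPKM. Hk2, the inducible form, had 4.68, 0.862 and 1.78 FPKM against 3.57, 3.93 and 6.82 FPKM. Hk2 was 4.56-fold and 3.83-fold higher with fibrils in replicates 2 and 3 but 0.764-fold in replicate 1, where control replicate 1 was the highest control.

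The bifunctional enzymes that set fructose 2,6-bisphosphate, an activator of phosphofructokinase, were low. Pfkfb2 had 3.90, 4.53 and 6.03 FPKM against 4.19, 5.66 and 1.17 FPKM, with only fibril replicate 3 below the controls. Pfkfb3 had 10.4, 3.87 and 4.45 FPKM against 4.44, 6.76 and 4.88 FPKM, with control replicate 1 the highest library. The first steps as a group (9 of 10 members tested) had 4 positive and 5 negative differences and a median of -0.09, where all genes had -0.04. The median was 0.12 under quantile normalization, and the members did not share a direction.

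In the later steps, which yield ATP and are called lower glycolysis in the plots, all 6 tested members had positive differences as deposited, with a median of 0.57; under the rescaling without mitochondrial genes 2 of the 6, Pgam1 and Pkm, turned slightly negative, and Pgam1 did so under quantile normalization. Pgk1, phosphoglycerate kinase (chromosome X, 77263358 to 77279367), had 69.5, 65.0 and 63.9 FPKM in the controls and 106, 99.3 and 350 FPKM in the fibril libraries. The controls agreed closely (66.1 ± 2.94 FPKM, SD, n = 3), the first 2 fibril libraries were about equal, and the last stood far above them. The log2 difference of Pgk1 was 1.21 (SE 0.55, limma adjusted p = 0.96, or 0.481 with the block), and 0.62 without fibril replicate 3. In fold terms Pgk1 was 1.52, 1.53 and 5.47 times its same-numbered control.

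Gapdh, which oxidises glyceraldehyde 3-phosphate and was the member with the highest mean level, had 205, 319 and 375 FPKM against 208, 430 and 1125 FPKM. Gapdh is often used as a reference gene, and here its fibril to control ratio ran from 1.01 in replicate 1 through 1.35 in replicate 2 to 3.001 in replicate 3. Eno1, the main enolase, had 88.4, 133 and 178 FPKM against 174, 140 and 528 FPKM, higher in each replicate number but overlapping between groups. Pkm, pyruvate kinase, had 44.4, 61.8 and 76.0 FPKM against 47.5, 70.4 and 114 FPKM, the narrowest difference of the members that were higher in all 3 numbers (log2 difference 0.29, SE 0.46). Without fibril replicate 3 the log2 difference of Gapdh went from 0.68 to 0.041 and that of Eno1 from 0.87 to 0.28.

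Pgam1, phosphoglycerate mutase, had 124, 74.5 and 68.0 FPKM against 105, 75.1 and 113 FPKM. Bpgm, which makes the side product 2,3-bisphosphoglycerate, had 47.0, 50.0 and 43.0 FPKM against 56.4, 50.0 and 94.8 FPKM. Both overlapped between groups. Tpi1 and Eno2, the triose isomerase and the neuronal enolase, were listed at 0 throughout and lie near each other on chromosome 4 (157326726 to 157331905 and 157285178 to 157294047). Fragments of Gapdh, Aldoa, Eno1, Ldha and Pgam1 can be assigned to related copies elsewhere in the genome, which makes their levels uncertain; of such copies in the table, Eno1b was listed at 0, and Aldoart2 and Gapdhs reached at most 1.80 and 0.725 FPKM. Pdha1l1, a copy of Pdha1, had 0.493 to 3.05 FPKM.

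Lactate dehydrogenase held the highest log2 difference of the 27 tested members. Ldha, the subunit that favours making lactate (chromosome 1, 102900285 to 102909707), had 72.4, 74.4 and 91.1 FPKM in the controls and 181, 173 and 659 FPKM in the fibril libraries. Every fibril library was well above the highest control, and the same-numbered ratios were 2.50, 2.33 and 7.23. The log2 difference was 1.79 (SE 0.58; unadjusted p = 0.0137 and adjusted p = 0.96 by limma, and 0.0024 and 0.244 with the block), and 1.16 without fibril replicate 3. Unlike Pfkl and Aldoa, Ldha kept its groups apart under quantile normalization (log2 difference 1.43) and under the rescaling (1.48, or 1.82 relative to all genes), and so did Pgk1 (0.90, and 0.91 or 1.24 relative to all genes).

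Ldhb, the subunit that favours using lactate, had 35.7, 134 and 93.1 FPKM against 30.1, 62.8 and 122 FPKM, lower in replicates 1 and 2 and higher in replicate 3. Slc16a1, the lactate transporter MCT1, had 7.20, 9.98 and 15.5 FPKM against 7.999, 7.11 and 4.50 FPKM. It was lower with fibrils in replicates 2 and 3 and not in replicate 1, and its log2 difference of -0.63 (SE 0.42) was the most negative of the set. Slc16a3, the transporter MCT4 of strongly glycolytic cells, was at or near 0 in both groups, with 0, 0.0695 and 0.114 FPKM against 0, 0.363 and 0.410 FPKM. The 3 tested genes of lactate handling had a median log2 difference of -0.31, with Ldha alone positive.

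**Figure D2:**
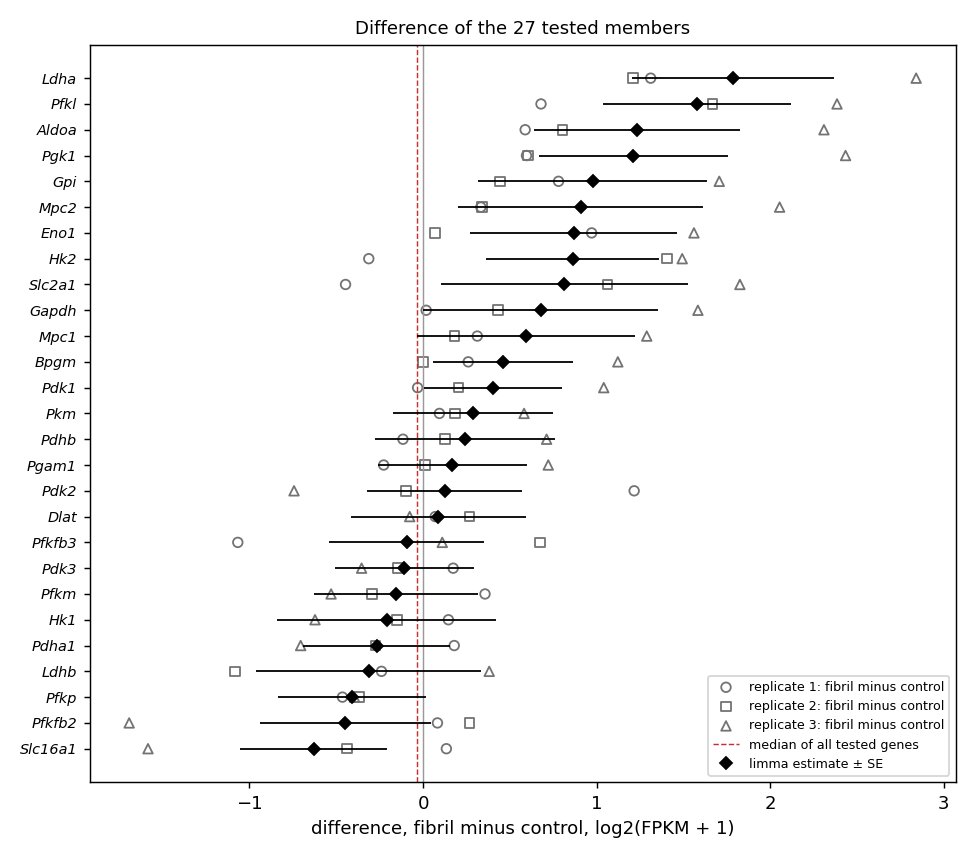
Difference between groups (fibril minus control) of the 27 tested members on the log2(FPKM + 1) scale, as the limma estimate with its SE (black diamonds and bars) and within each replicate number (open grey symbols), with the median of all genes as a dashed line. Ldha is highest at 1.79 and Slc16a1 lowest at -0.63, and the replicate 3 symbols lie farthest right for most of the upper rows.

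None of the 8 genes of pyruvate entry into mitochondria had its groups apart. The carrier genes Mpc1 and Mpc2 had 282, 130 and 65.7 FPKM against 351, 148 and 162 FPKM, and 200.2, 77.2 and 29.4 FPKM against 252, 97.9 and 125 FPKM. Both carrier genes were higher with fibrils in all 3 replicate numbers, by 0.59 (SE 0.63) and 0.91 (SE 0.71) on the log2 scale, but replicate 1 of each group was the highest of its group. The log2 differences of Mpc1 and Mpc2 ran from 0.084 and 0.23 without control replicate 3 to 1.13 and 1.59 without control replicate 1. The pyruvate dehydrogenase genes, which encode the complex that makes acetyl-CoA, also overlapped. Pdha1 had 40.2, 31.7 and 32.3 FPKM against 45.7, 26.0 and 19.5 FPKM. Pdhb had 81.2, 30.4 and 31.6 FPKM against 74.9, 33.3 and 52.4 FPKM, and Dlat 20.0, 7.06 and 10.4 FPKM against 21.0, 8.70 and 9.77 FPKM. All 3 overlapped between groups, and Pdhb and Dlat changed sign with the scaling.

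The pyruvate dehydrogenase kinases, which switch that complex off, also overlapped between groups. Pdk1, a hypoxia-responsive form, had 8.62, 5.83 and 4.14 FPKM against 8.41, 6.86 and 9.58 FPKM. Pdk2 had 6.41, 11.8 and 12.2 FPKM against 16.2, 10.9 and 6.87 FPKM, with opposite directions in replicates 1 and 3. Pdk3 had 21.3, 14.8 and 16.9 FPKM against 24.1, 13.3 and 12.97 FPKM. The 8 pyruvate entry members had a median log2 difference of 0.18 with 6 positive, and of -0.12 with 3 positive after the rescaling, or 0.22 relative to all genes.

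Part of the set followed replicate number. Both replicate 1 libraries lay above the other 4 for 6 members, all of them pyruvate entry genes (Pdk3, Pdha1, Pdhb, Dlat, Mpc1 and Mpc2), 22.2% of those tested against 19.9% of all genes. Both lay below the other 4 for 8 members, none of them pyruvate entry genes (Slc2a1, Hk1, Gpi, Pfkm, Pfkp, Gapdh, Pkm and Ldhb), 29.6% against 27.3% of all genes. Both shares were near those of all genes. After the rescaling without mitochondrial genes, both replicate 1 libraries lay above the other 4 for 4 members and below them for 10. The shares of all genes under that rescaling are not given. The replicate 1 libraries are also those with the high mitochondrial share given above, and the part this share plays was not tested.

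Over the whole set, 18 of 27 tested members (66.7%) had positive log2 differences, against 47.0% of all genes, and the median was 0.29 against -0.04. Within replicates 1, 2 and 3 the member medians were 0.15, 0.18 and 0.72, and those of all genes 0.003, -0.04 and -0.05, widest apart in replicate 3. Without fibril replicate 3 the median was 0.19, and that of the later glycolysis genes was 0.12 in place of 0.57. The 10 members higher in all 3 numbers were Gpi, Pfkl, Aldoa, Gapdh, Pgk1, Eno1, Pkm, Ldha, Mpc1 and Mpc2 (37.0%, against 16.9% of all genes). Rescaling without mitochondrial genes moved the median of all genes to -0.33 and that of the members to -0.02, which is 0.31 relative to all genes (0.32 as deposited); 13 members were then positive and 14 negative. Quantile normalization gave 0.17 for the members and 0.0002 for all genes. Under the rescaling 3 members (Aldoa, Pgk1 and Ldha) lay above all controls, where 2.50% of all genes did, and 0 lay below (7.06% of all genes). Under quantile normalization 3 members (Pfkl, Pgk1 and Ldha) lay above, where 4.74% of all genes did, and 0 below (4.44%). The 31 members together held 0.387%, 0.474% and 0.574% of the FPKM outside mitochondrial genes in controls and 0.47%, 0.578% and 1.02% with fibrils, higher in each replicate number but with overlapping groups.

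A ratio of the FPKM of related members within a library does not depend on the library's total; 10 of 12 listed ratios could be formed. They were tested as log2 ratios of (FPKM + 1), which for low genes do depend on the total and on the pseudocount: between pseudocounts of 0.1 and 5 the difference went from 1.60 to 0.50 for Slc16a3/Slc16a1 and from 1.40 to 0.61 for Hk2/Hk1, against 2.12 to 2.03 for Ldha/Ldhb and 1.81 to 1.48 for Pfkl/Pfkm. Ldha over Ldhb was 2.03, 0.555 and 0.979 in controls and 6.01, 2.76 and 5.42 with fibrils. Every fibril library had a higher share of the lactate-making subunit than every control. On the log2(FPKM + 1) scale the ratio was 0.04 ± 0.92 against 2.14 ± 0.60 (SD, n = 3 each), a difference of 2.10 (two-sided exact permutation p = 0.1, the smallest that 3 against 3 can give; 0.5 adjusted over the 10 ratios). Without fibril replicate 3 the difference was 1.96.

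Pfkl over Pfkm was 1.46, 0.357 and 0.514 in controls and 1.83, 1.53 and 4.15 with fibrils. The liver-type subunit exceeded the muscle type in all 3 fibril libraries and in 1 control. The log2 difference was 1.73 (exact permutation p = 0.1, 0.5 adjusted over the 10 ratios), and 1.30 without fibril replicate 3. The groups overlapped for the other 8 ratios, whose exact permutation p ran from 0.2 to 0.8. Hk2 over Hk1, for instance, was 0.546, 0.0351 and 0.0403 against 0.372, 0.179 and 0.241, with control replicate 1 above all fibril libraries.

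**Figure D3:**
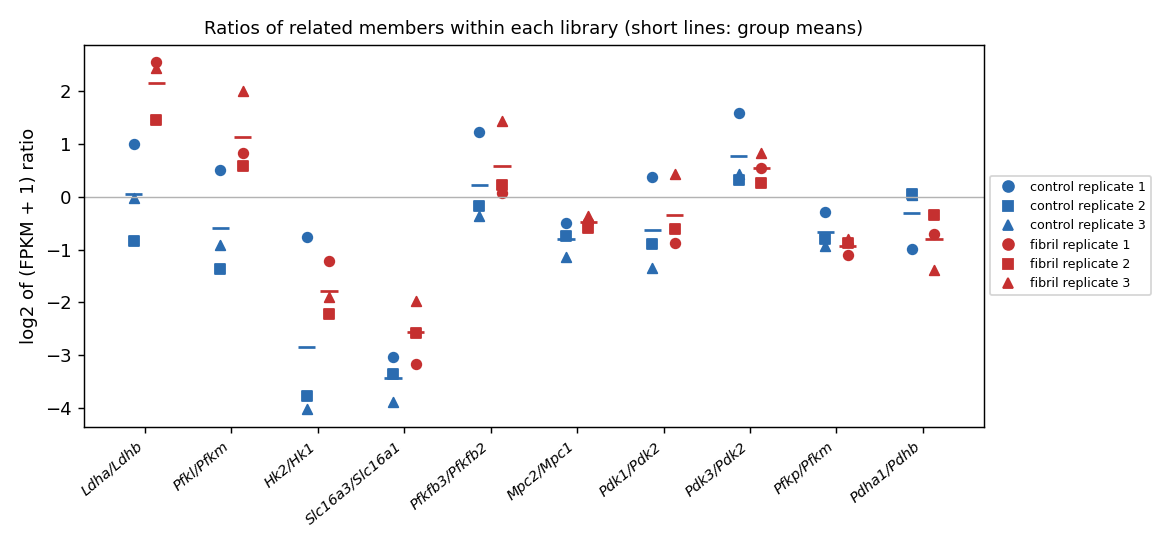
log2 ratio of (FPKM + 1) of 10 pairs of related members in each library (controls in blue and fibril libraries in red, replicates told apart by marker), with group means as short lines. The groups are apart for Ldha/Ldhb (means 0.04 and 2.14) and Pfkl/Pfkm (means -0.60 and 1.14) and overlap for the other 8.

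Routes that branch from or follow glycolysis held no gene past the test. Of the pentose phosphate pathway, which makes NADPH and ribose, 6 of 8 listed genes were tested and 4 were positive (median 0.40). After the rescaling the pathway had 4 positive and a median of 0.10, or 0.43 relative to all genes. Its smallest p-values belonged to Taldo1, transaldolase, with 59.9, 115 and 117 FPKM against 86.8, 135 and 380 FPKM, and Tkt, transketolase, with 47.4, 95.1 and 110 FPKM against 63.3, 107 and 208 FPKM. Among glycogen genes 4 of 11 were positive (median -0.12). After the rescaling 3 were, with a median of -0.42, or -0.09 relative to all genes. Phkb, a phosphorylase kinase subunit, led the glycogen genes by p-value, with 4.71, 5.64 and 8.07 FPKM against 3.61, 5.09 and 1.32 FPKM. The tricarboxylic acid cycle, which burns the acetyl-CoA made from pyruvate, had 12 of 15 positive (median 0.28), and 6 after the rescaling (median -0.02, or 0.31 relative to all genes).

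Sdhc, a succinate dehydrogenase subunit, had 104, 128 and 101 FPKM against 210, 132 and 236 FPKM. It was above all controls in all fibril libraries, as were 4.24% of all tested genes. Mdh2, mitochondrial malate dehydrogenase, had a log2 difference of 0.75. The shuttles that carry cytosolic NADH into mitochondria had 5 of 7 positive (median 0.45), with Got1 at 0.62 and Gpd1l at 0.49. After the rescaling 4 were positive (median 0.15, or 0.48 relative to all genes). In all these lists 0 genes passed in either direction, with limma adjusted p = 0.96 for each gene named.

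The remaining genes of glucose, lactate and pyruvate handling (15 of 39 tested) had 9 positive and a median of 0.14, which turned to 5 positive and a median of -0.17 after the rescaling (0.17 relative to all genes). Pdhx, the binding protein of the pyruvate dehydrogenase complex, had 17.1, 11.4 and 13.4 FPKM against 31.3, 14.1 and 33.5 FPKM. Pdp1, the phosphatase that switches that complex on, had 9.87, 6.22 and 7.10 FPKM against 5.15, 5.03 and 4.22 FPKM. It lay below all controls in all fibril libraries, as did 5.30% of all tested genes. Hypoxia-inducible transcripts outside glycolysis (10 of 18 tested) had 9 positive and a median of 0.45, and 7 positive and a median of 0.15 after the rescaling (0.48 relative to all genes). In that list Ankrd37 had 1.43, 2.05 and 0.916 FPKM against 3.74, 3.65 and 5.12 FPKM, above all controls in all fibril libraries (4.24% of all tested genes were). Bnip3, a mitophagy receptor, had 59.5, 24.5 and 14.4 FPKM against 87.6, 56.1 and 62.6 FPKM, and its groups overlapped. Their unadjusted limma p were 0.0196 and 0.0454 and their adjusted p 0.96. After the rescaling 0 of the 10 tested genes in that list had an unadjusted limma p under 0.05. With the rescaling and the block together 2 did.

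**Figure D4:**
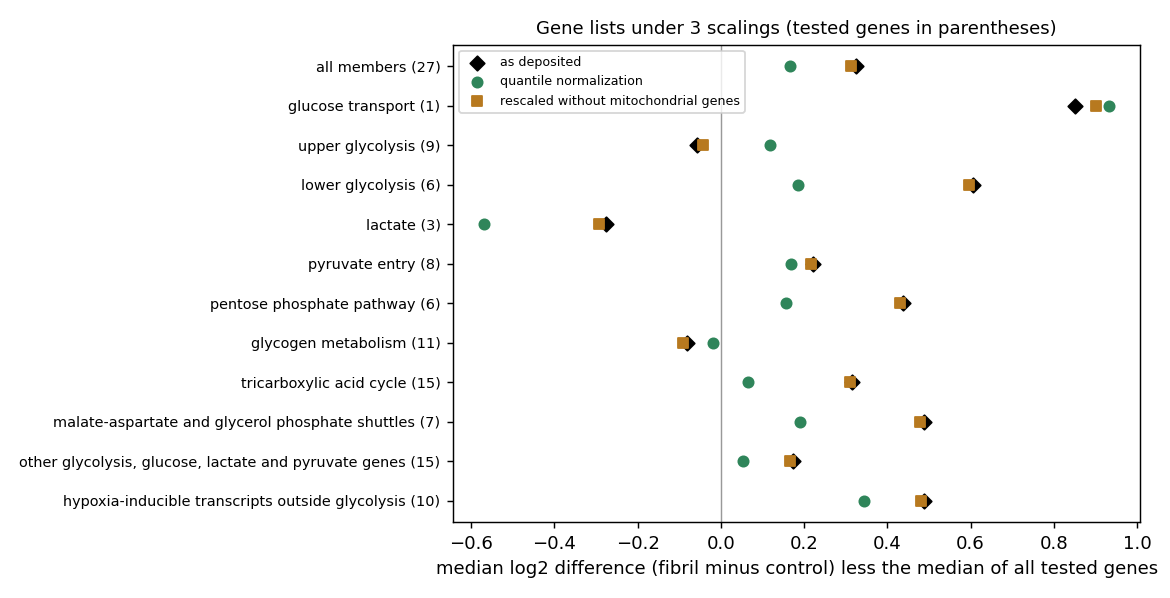
For each gene list, the median log2 difference between groups (fibril minus control) less that of all tested genes, as deposited (black diamonds), under quantile normalization (green circles) and rescaled without mitochondrial genes (brown squares). The median of the 27 members is 0.32, 0.17 and 0.31 under the 3 scalings, and that of the lower glycolysis genes 0.61, 0.19 and 0.60.

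Markers of the cultured cells and of other cell types also differed in level, and in these bulk libraries fewer cells of a type and less RNA per cell cannot be told apart. Precursor markers (9 of 10 in the table, all tested, led by Olig1 and Olig2) summed to 1540 to 2551 FPKM in the controls and 1269 to 1500 FPKM in the fibril libraries. Of the 9, 2 were positive and 7 negative, with a median log2 difference of -0.41. Taken singly, 0 of the 9 had the groups apart and 0 had an unadjusted limma p under 0.05. Markers of differentiating oligodendrocytes summed to 1033 to 4819 against 4796 to 9113 FPKM, led by Bcas1 and Cnp. Of these 12 markers 9 were tested and all 9 were positive, against 47.0% of all tested genes. Their median log2 difference was 2.65, and 7 of the 9 had an unadjusted limma p under 0.05, against 4.02% of all tested genes. All fibril libraries lay above all controls for 7 of the 9, against 4.24% of all tested genes. With the block 3 of them rose, Enpp6, Mag and Mbp, by 3.66, 3.55 and 3.94 on the log2 scale. With the block and the rescaling together 1 of the 9 was called. Without the block 0 were called, except in the fit without a trend, where 1 was. Astrocyte markers summed to 202 to 220 against 117 to 270 FPKM, with Gjb6 at 0, but the sum in fibril replicate 3 was mostly Aldoc. Of the 8 tested astrocyte markers 6 were negative, with a median log2 difference of -1.13 and an unadjusted limma p under 0.05 for 4 of the 8. Slc1a3, which encodes an astrocytic glutamate transporter, had 28.2, 60.9 and 59.4 FPKM against 13.1, 16.5 and 23.2 FPKM. It was 1 of 2 astrocyte markers below all controls in all fibril libraries (5.30% of all tested genes were). In the other direction, 1 astrocyte marker lay above all controls (4.24% of all tested genes did). Neuron markers summed to 94.7 to 155 against 60.8 to 77.2 FPKM, with all 8 tested negative (median -0.61). Of the 8, 4 lay below all controls, where 5.30% of all tested genes did. Microglia and macrophage markers (7 of 14 tested) summed to 2.05 to 47.2 against 13.5 to 62.6 FPKM. Of the 7, 5 were positive and 2 negative, with a median log2 difference of 0.96. An unadjusted limma p under 0.05 was found for 2 of the 7, against 4.02% of all tested genes. All fibril libraries lay above all controls for 1 of the 7, against 4.24% of all tested genes. Endothelial and fibroblast or mural markers summed to at most 0.407 FPKM in any library, with Cldn5, Acta2, Col1a2 and Lum at 0. The part of these cells in the Ldha, Pfkl, Aldoa and Pgk1 values was not tested. Aldoc, an aldolase that is an astrocyte marker, had 92.8, 66.6 and 77.4 FPKM against 69.7, 68.2 and 181 FPKM, without the separation that Aldoa showed.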

How the data were processed

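The authors deposited 1 table of FPKM for 32662 rat genes with Ensembl identifiers, 1 column per library, per the file headers. Libraries were strand-specific (Agilent SureSelect), per the labels' protocols. The submitters' processing notes name Trimmomatic and FastQC. What aligned and quantified the reads, on which build and with which strand setting, is not given in the sources used here. FPKM are not counts, so no count model was run and depth was read only from low values.

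Values were analysed as log2(FPKM + 1), which understates changes of low genes, for 10766 genes that reached 1 FPKM in 3 libraries or more, with limma 3.58.1 in R 4.3.3 (two-sided, with a mean-variance trend; p-values adjusted by Benjamini-Hochberg over all genes, threshold 0.05); the fit was tested on simulated data. Ratios of member pairs used a two-sided exact permutation test. Same-numbered libraries deviated together across genes (correlations 0.747, 0.364 and 0.216, all above 0.1), so a second fit took the replicate number as a block; the labels state no pairing. Control replicate 3 correlated more with fibril replicate 2 (0.500) than with its own number. Control replicate 2 likewise correlated more with fibril replicate 3 (0.433) than with its own number (0.364). Only in replicate 1 was the same-numbered library the closest match, so the block rests mainly on replicate 1.

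The members and lists were chosen with earlier results of these data known. All 31 members are named; other lists are represented by the 2 genes with the smallest p or, for cell types, by summed markers and the 2 highest markers. One gene that this rule names is not reported here. Sdhc, Pdp1 and Ankrd37 fall under that rule; Dppa3, Gdf3, Nanog, Hprt1, Rps6, Aldoart2, Gapdhs, Eno1b, Pdha1l1, Enpp6, Mag and Mbp were named after their values were seen.

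Alternatives were other scalings (quantile; equal totals of 1000000 without mitochondrial genes), pseudocounts of 0.1 and 5, other filters, no trend, each library left out, replicates 2 and 3 only and, chosen after seeing the data, replicates 1 and 2 only. Scaling and leave-out settings kept the same 10766 genes.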

Additional observations from a re-analysis of the deposited data

How the results depend on the processing

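No member passed the limma threshold under any setting run. Genes called higher numbered 12 with the replicate block, 1 with the block and rescaling together, 1 without a trend, 0 to 3 on leaving out 1 library (3 without fibril replicate 3) and 0 otherwise; 0 were called lower throughout. Members with fibril libraries above all controls numbered 4 to 10 on leaving out 1 library (5.81% to 11.4% of all genes) and 14 (51.9%) in replicates 2 and 3 only (18.0% of all genes). Those below numbered 0 to 3 (6.58% to 18.7% of all genes) and 6 (22.2%, near the 24.2% of all genes). Members higher in every replicate number were 11 to 16 (24.6% to 30.6% of all genes) and 16 (59.3%, against 24.6%). There were 9 under quantile normalization (33.3%, against 17.6% of all genes). With the rescaling there were 8 (29.6%, against 9.64%), and in replicates 1 and 2 only 12 (44.4%, against 25.7%). Members lower in every number were 1 to 7 (at least 29.1% of all genes) and 7 (25.9%, against 30.5%). There were 2 under quantile normalization (7.41%, against 17.1% of all genes). With the rescaling, with or without the block, there were 3 (11.1%, against 30.3%). In replicates 1 and 2 only there were 2 (7.41%, against 29.1%). These settings separate fewer libraries or move all genes.

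Of the 27 members, 16 kept their sign under every setting run and 11 did not. With the rescaling (with or without the replicate block) the log2 differences reversed for Pgam1 (-0.14), Pkm (-0.0202), Pdk2 (-0.17), Pdhb (-0.0627) and Dlat (-0.21), and under quantile normalization for Pgam1 (-0.0835) and Pfkfb3 (0.12). Replicates 2 and 3 only reversed Pfkfb3 (0.39) and Pdk2 (-0.42); replicates 1 and 2 only reversed Pfkm (0.0315), Pfkfb2 (0.18), Pgam1 (-0.11) and Pdk3 (0.0141). Leaving out 1 library gave -0.82 to 0.30 for Hk1, -0.585 to 0.16 for Pfkm, -0.78 to 0.0312 for Pfkfb2, -0.33 to 0.29 for Pfkfb3, -0.0367 to 0.59 for Pkm, -0.85 to 0.19 for Ldhb, -0.15 to 0.41 for Pdk2, -0.39 to 0.0385 for Pdk3, -0.0343 to 0.70 for Pdhb and -0.28 to 0.46 for Dlat. Of the ratios, it gave -0.0781 to 0.85 for Pfkfb3/Pfkfb2, -0.47 to 0.17 for Pdk3/Pdk2 and -0.11 to 0.78 for Pdk1/Pdk2. Relative to the median of all genes, the members reversed by the rescaling stayed positive: Pgam1 0.19, Pkm 0.31, Pdk2 0.16, Pdhb 0.27 and Dlat 0.13. The cause of the reversals was not tested. The block changed no other call. The lowest adjusted p of any member ran from 0.244 to 0.99997 over the settings. A count model was not run, since the table holds no counts, and the depth behind low values cannot be given.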
